A study of Mus musculus with 6 samples.

Results

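Hematopoietic stem cells (HSCs) are isolated from mouse bone marrow (BM) by proteins on their surface. The 10 genes described here encode the markers that this sort was set by, the SLAM pair CD150 and CD48 that is widely used beside it, and a set of genes by which HSCs are known. They were chosen by symbol, not by their values: Kit, Ly6a, Cd34, Flt3, Slamf1, Cd48, Procr, Tek, Esam and Fgd5. All 10 were found among the 21878 genes listed for each library. RNA-seq of HSCs was available from 3 libraries of vehicle-treated mice, called control, and 3 libraries of mice treated with IGF1. The mice carried the genotype label WT, and C57BL/6 mice were used in the study as its wild type. IGF1, a growth factor, was given subcutaneously as 1 dose of 200 µg/kg of the recombinant mouse protein, and cells were taken at day 1, a dose and day that come from the study's methods. Age and the number of animals behind a library are not given in the sources used here. The sample labels conflict, since their text on RNA extraction speaks of irradiated mice where the treatment label and the design name IGF1, and the treatment label was followed.

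The gate was Lineage-Sca-1+c-Kit+Flt3-CD34-, so c-Kit (Kit) and Sca-1 (Ly6a) had to be present on a sorted cell, and CD34 and Flt3 had to be absent. As background, c-Kit is the receptor of stem cell factor and keeps HSCs alive, and adult mouse HSCs with long-term activity are found among cells that lack CD34 and Flt3, which appear as stem cells turn into multipotent progenitors. CD150 marks HSCs that lack CD48, and both belong to the SLAM family of immune receptors. An antibody reads protein on the surface of single cells, whereas the values here are messenger RNA averaged over all cells of a library.

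The level of a gene is given in FPKM, the fragments of RNA that fall on it, divided by the length of the gene and the size of the library, so levels of different genes may be set side by side. Fold changes are IGF1 minus control on the scale of log2(FPKM + 1), where the change of genes near or under 1 FPKM is understated. They come from 1 limma model over the 10449 genes that reached 1 FPKM in 3 or more libraries, and a gene was called at a Benjamini-Hochberg adjusted p under 0.05 with a fold over 2. Between 11206800 and 15973834 reads fell on listed genes in a library. Nothing in the labels says that libraries came from separate animals, so p-values measure only the spread between these samples, which may be technical. Since the RNA is pooled over cells, fewer cells of a type and less RNA per cell cannot be told apart.

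Libraries are named by their replicate numbers, so control 2 is control replicate 2. The control libraries were not alike, so the results are given with all libraries and, where a model was fitted, also without control replicate 2. Whether that library was swapped, mixed or mislabelled was not tested, and its label was kept, so every control mean, fold change and p-value with all libraries includes it as a control. The median absolute log2 difference over genes was 0.053 between control replicates 1 and 3 and 0.067 to 0.070 between IGF1 libraries. It was 0.589 and 0.590 between control replicate 2 and the other controls, but 0.225 to 0.233 between control replicate 2 and the IGF1 libraries. That library was nearer the IGF1 mean than the mean of the other controls in 77.3% of the genes tested and in 9 of the 10 genes described here. Control replicate 2 was thus singled out by its values in these same data. Leaving out the control nearest the IGF1 libraries favours larger differences and smaller p-values, so results without it are a description and not independent support.

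Kit, which sits on chromosome 5 at chr5:75574916-75656722 on the plus strand, had 105, 31.4 and 104 FPKM in controls 1 to 3, against 24.6, 24.4 and 24.2 FPKM with IGF1. All IGF1 libraries lay below all controls, and control replicate 2 stood close to them, far under the other controls. The mean level was 80.2 ± 42.3 FPKM in control (SD, n = 3) and 24.4 ± 0.212 FPKM in IGF1 (SD, n = 3), a ratio of 3.29 between the plain means. On the log2(FPKM + 1) scale the fold change was -1.49 (standard error 0.47), which missed the threshold (adjusted p = 0.0602 from limma). Without control replicate 2, Kit was called lower with IGF1 (log2 fold change -2.06, adjusted p = 2e-11 from limma). Counting error was small beside these gaps, since 9248, 1997 and 9269 reads in the controls and 1677, 1524 and 1715 reads in the IGF1 libraries fell on Kit.

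Ly6a encodes Sca-1, a small protein held in the membrane by a lipid anchor, and lies at chr15:74994877-74998031 on the minus strand. Its level was 219, 615 and 231 FPKM in controls 1 to 3, against 385, 387 and 374 FPKM with IGF1. The groups overlapped because control replicate 2 lay above all IGF1 libraries while the other controls lay below them. The log2 fold change was 0.28 (standard error 0.41, adjusted p = 0.577 from limma), and without control replicate 2 it was 0.76 (adjusted p = 6e-09), under the fold threshold. Without control replicate 1 or 3 it was 0.019 and 0.058. The difference was 0.00 under quantile normalization and -0.0879 once trends on gene length and GC content were removed. It was 0.55 with scaling to the 75th percentile and 0.46 with median ratio scaling. Of the 50-base windows of its longest reference transcript, 10.04% also occur in other genes, with Ly6c1 the gene that shares the most (4.42%), so reads may have been shared with its family and its level is uncertain.

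Among the excluded markers, Cd34 had 640.0, 265 and 634 FPKM in controls 1 to 3, against 231, 238 and 230.2 FPKM with IGF1. CD34 is a sialomucin, a heavily glycosylated surface protein of progenitors and of vessels, and its gene lies at chr1:194938819-194961279 on the plus strand. All IGF1 libraries again lay below all controls, with control replicate 2 next to them. The log2 fold change was -1.03 (standard error 0.36) and missed the threshold (adjusted p = 0.0714 from limma), whereas Cd34 was called lower without control replicate 2 (-1.45, adjusted p = 2.5e-11). Its size moved with the processing, from -1.65 under quantile normalization to -0.34 with length and GC trends removed. The noncoding gene Gm16897 overlaps Cd34 on the opposite strand, and whether the counting used strand is not stated.

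Flt3, the receptor of FLT3 ligand and a mark of multipotent progenitors, lay on the other side. It lies at chr5:147330741-147400489 on the minus strand and had 117, 172 and 117 FPKM in controls 1 to 3, against 187, 188 and 183 FPKM with IGF1. Every IGF1 library lay above every control, and control replicate 2 was again the nearest of them. The mean level was 135 ± 32.1 FPKM in control (SD, n = 3) and 186 ± 2.53 FPKM in IGF1 (SD, n = 3). The log2 fold change was 0.48 (standard error 0.18, adjusted p = 0.0783 from limma) and was 0.67 without control replicate 2 (adjusted p = 7.5e-09), in both cases under the fold threshold. Its sign was the same under all scalings tried, with values of 0.39 to 0.79.

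**Figure D1:**
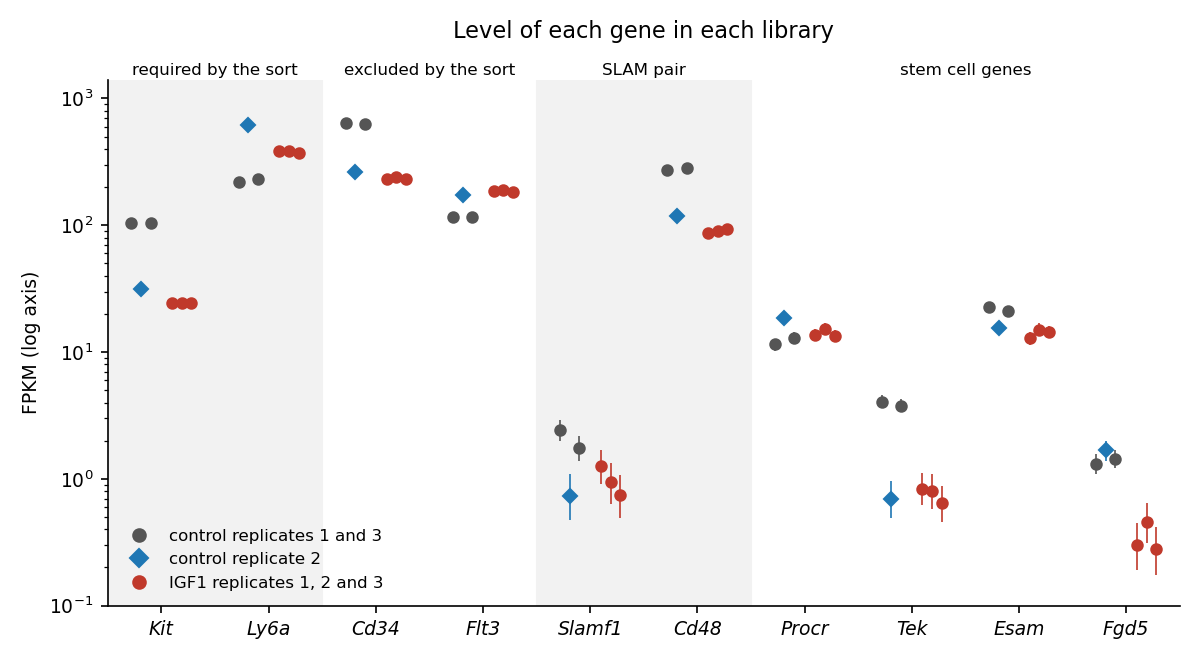
Level of the 10 genes in each library, in FPKM on a log axis, grouped by their place in the sort. Points are single libraries and bars are 95% Poisson intervals from the reads recovered for that library, which cover counting error only. Control replicate 2 (diamonds) sits at 31.4 FPKM of Kit beside the IGF1 libraries at 24.2 to 24.6, but at 1.68 FPKM of Fgd5 beside the other controls at 1.32 and 1.44.

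Kit and Flt3 encode receptors of 1 family of tyrosine kinases, yet stood on opposite sides of the sort and on opposite sides of no change here, so the sequence before each start is shown. It is taken from RefSeq's promoter table (GRCm38.p6), written 5′ to 3′ and kept to bases outside the annotated gene. Where the table held more than 1 promoter, as for Kit, the first was used. Capitals mark matches on either strand to AGATAA, known for erythroid factors of the GATA family, TGTGGT, known for RUNX factors, GAGGAA, known for PU.1, or GTAAACA, known for FOXO factors. The first line covers chr5:75574737-75574915 (plus strand) and the second chr5:147400490-147400739 (minus strand).
Kit: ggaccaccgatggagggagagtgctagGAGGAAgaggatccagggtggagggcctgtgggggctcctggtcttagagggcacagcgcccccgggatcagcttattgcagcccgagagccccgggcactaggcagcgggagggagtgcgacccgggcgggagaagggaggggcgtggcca
Flt3: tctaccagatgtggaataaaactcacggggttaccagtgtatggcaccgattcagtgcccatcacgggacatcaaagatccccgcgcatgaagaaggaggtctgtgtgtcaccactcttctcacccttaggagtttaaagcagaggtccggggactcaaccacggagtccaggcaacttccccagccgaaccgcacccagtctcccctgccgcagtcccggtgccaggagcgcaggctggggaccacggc
Kit held 1 match to GAGGAA, 223 bases before the RefSeq start, and Flt3 held none of the 4 motifs. Of 32851 promoters, 23.3% held GAGGAA within the 250 bases before the start, 14.0% held TGTGGT, 9.99% held AGATAA and 3.17% held GTAAACA. The matches are a description of letters and were not tested for binding.

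A ratio between a pair of genes within 1 library does not change when that library is multiplied by a single factor, though it can change under quantile normalization or removal of length and GC trends. The ratio of Kit to Flt3, a required marker over an excluded one, was 0.897, 0.182 and 0.896 in controls 1 to 3, against 0.131, 0.130 and 0.132 with IGF1. Kit and Flt3 were thus near parity per length in control replicates 1 and 3, and Flt3 was the higher by 5.48-fold in control replicate 2 and by 7.58- to 7.69-fold in the IGF1 libraries. The groups did not overlap, with a mean log2 ratio of -0.92 ± 1.33 in control (SD, n = 3) and -2.93 ± 0.011 in IGF1 (SD, n = 3). The mean of control replicates 1 and 3 alone was -0.16.

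Against Cd34, the other excluded marker, the difference of Kit was smaller. Its ratio was 0.164, 0.119 and 0.165 in controls 1 to 3, against 0.106, 0.103 and 0.105 with IGF1. The groups did not overlap, and the mean log2 difference was -0.49, or -0.65 without control replicate 2. Kit and Cd34, which the sort treats in opposite ways, both had lower plain means with IGF1, by 3.29-fold and 2.20-fold. The direction of their ratio depended on the scaling, since after quantile normalization of log2(FPKM + 1), an alternative chosen after seeing the data, the difference was 0.24, and with length and GC trends removed it was -0.89.

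For Ly6a over Cd34 the libraries fell into different places. The ratio was 0.342, 2.32 and 0.365 in controls 1 to 3, against 1.67, 1.63 and 1.63 with IGF1. Cd34 exceeded Ly6a in control replicates 1 and 3, and Ly6a exceeded Cd34 in the other 4 libraries, with control replicate 2 beyond all IGF1 libraries. The ratio of Ly6a to Flt3 was 1.87, 3.57 and 1.98 in controls 1 to 3, against 2.06, 2.06 and 2.04 with IGF1. Control replicates 1 and 3 and the IGF1 libraries were close together there and control replicate 2 alone was apart. The mean log2 difference of this ratio was -0.20 with all libraries and 0.0924 without control replicate 2, so its direction rested on that library.

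**Figure D2:**
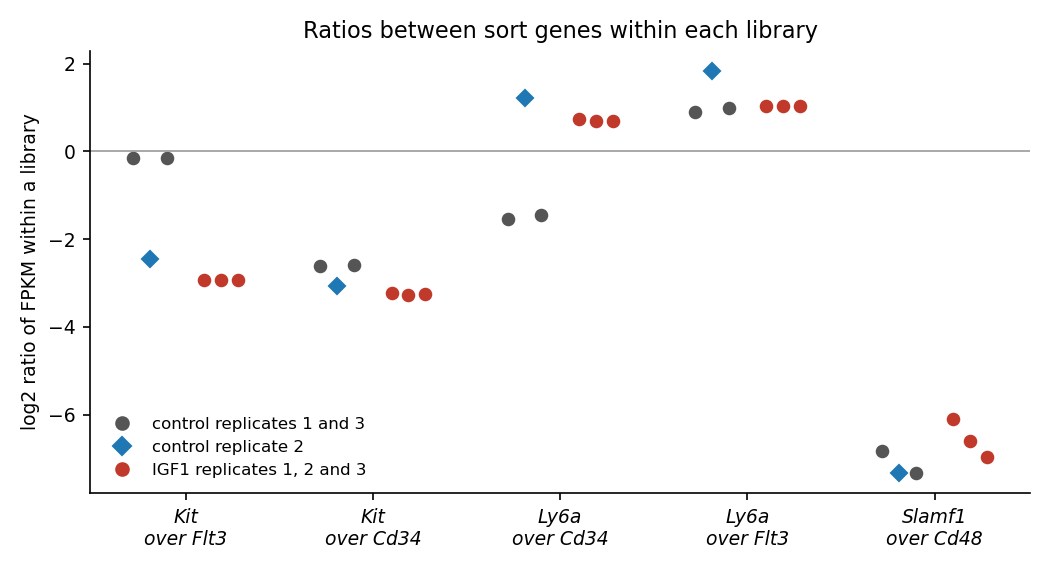
Ratios of FPKM between sort genes within each library, on a log2 axis, with 1 point per library and a line at equal levels. Kit over Flt3 lies at -0.16 in control replicates 1 and 3, at -2.46 in control replicate 2 and at -2.94 to -2.92 in the IGF1 libraries.

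The SLAM pair was not part of the gate. Slamf1, which encodes CD150, had 2.41, 0.736 and 1.76 FPKM in controls 1 to 3, against 1.26, 0.937 and 0.741 FPKM with IGF1. The groups overlapped, and between 24 and 109 reads per library fell on the gene, so intervals were wide (0.472 to 1.09 FPKM in control replicate 2, 95% Poisson). Its log2 fold change was -0.37 (standard error 0.26, adjusted p = 0.272 from limma) and -0.64 without control replicate 2 (adjusted p = 0.000914). Without control replicate 1 it was -0.15 (adjusted p = 0.641), and it turned to 0.24 with length and GC trends removed. It passed the filter with 3 libraries, the fewest that the filter allows.

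Cd48 encodes a lipid-anchored ligand of CD244 that HSCs lack and most other blood cells carry. It had 272, 118 and 283 FPKM in controls 1 to 3, against 86.6, 90.5 and 93.3 FPKM with IGF1. The IGF1 libraries lay below all controls, with control replicate 2 nearest to them. The log2 fold change was -1.20 (standard error 0.35, adjusted p = 0.0537 from limma), and Cd48 was called lower without control replicate 2 (-1.61, adjusted p = 1.4e-10). Its length-scaled level exceeded that of Slamf1 by 113-, 160.0- and 161-fold in control replicates 1, 2 and 3 and by 68.9-, 96.5- and 126-fold in the IGF1 libraries. These ranges overlapped. The genes are neighbours on chromosome 1 (Cd48 at chr1:171682009-171705258 and Slamf1 at chr1:171767127-171801184), 61.9 kb apart.

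Of the HSC genes outside the gate, Fgd5 differed in a way that did not depend on control replicate 2. Fgd5 encodes an exchange factor for the small GTPase CDC42, and reporters at this gene are used to mark HSCs. It lies at chr6:91978878-92076004 on the plus strand and had 1.32, 1.68 and 1.44 FPKM in controls 1 to 3, against 0.302, 0.459 and 0.277 FPKM with IGF1. All controls lay above all IGF1 libraries, control replicate 2 was the highest of the 6, and the 95% Poisson intervals of no control (lowest bound 1.102 FPKM) and no IGF1 library (highest bound 0.648 FPKM) met. The reads were few, with 130, 119 and 143 in the controls and 23, 32 and 22 with IGF1. The ratio of the plain means was 4.27, and 3.99 without control replicate 2.

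The test of Fgd5 depended on the scale, since its levels were near the pseudocount. On log2(FPKM + 1) it passed the adjusted p but not the fold, at -0.88 with a standard error of 0.0996 (adjusted p = 0.0286 from limma, a threshold that 20.4% of all genes passed) and at -0.82 without control replicate 2. With a pseudocount of 0.1 it was called lower (-1.84, adjusted p = 0.0316), where 9.37% of all genes were called and 6.71% were called lower. It was also called by limma's voom on the reads recovered from the FPKM values, an alternative chosen after seeing the data (-2.10, adjusted p = 0.0349), where 10.1% of all genes were called and 6.5% were called lower. Fgd5 entered the test only through its 3 control libraries, so among tested genes it had to differ. Leaving out any single library other than control replicate 2 gave an adjusted p of 0.141 to 0.164. In each of those fits 0 genes passed the adjusted p, and no gene had a lower value than Fgd5. With no filter on low values its log2 fold change was again -0.88 (adjusted p = 0.0192 from limma), where 1695 of 15640 genes passed the adjusted p.

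The sequence before Fgd5 is shown because this gene alone among the 10 passed the adjusted p with all libraries, at chr6:91978715-91978877 (GRCm38.p6, RefSeq, plus strand), with capitals as above.
Fgd5: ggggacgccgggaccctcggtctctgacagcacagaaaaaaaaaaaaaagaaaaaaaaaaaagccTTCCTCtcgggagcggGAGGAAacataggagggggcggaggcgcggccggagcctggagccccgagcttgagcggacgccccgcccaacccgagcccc
It held 1 match to GAGGAA on each strand, 185 and 169 bases before the start, a motif that 23.3% of promoters hold.

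Tek encodes TIE2, the receptor of the angiopoietins on HSCs and endothelium, and lies at chr4:94739289-94874976 on the plus strand. Its level was 4.06, 0.699 and 3.76 FPKM in controls 1 to 3, against 0.839, 0.805 and 0.642 FPKM with IGF1. Control replicates 1 and 3 stood apart from the other 4 libraries, and control replicate 2 lay within the range of the IGF1 libraries. Since only 2 libraries reached 1 FPKM, Tek was not tested in the main model, and with no filter its log2 fold change was -0.97 (standard error 0.43, adjusted p = 0.139 from limma). The plain means were 3.73-fold higher in control, and 5.14-fold higher without control replicate 2, for which no model of Tek was fitted.

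Esam, an adhesion molecule of endothelium and HSCs, lies at chr9:37528078-37538319 on the plus strand. It had 22.5, 15.5 and 21.0 FPKM in controls 1 to 3, against 12.8, 15.0 and 14.4 FPKM with IGF1. The groups did not overlap, but control replicate 2 and IGF1 replicate 2 were nearly level. The log2 fold change was -0.44 (standard error 0.17, adjusted p = 0.0799 from limma) and -0.60 without control replicate 2 (adjusted p = 1.5e-05). Its size moved with the scaling, at -0.11 under quantile normalization, -0.18 at the 75th percentile and -0.27 with median ratio scaling. With length and GC trends removed it was -0.53.

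Procr encodes the endothelial protein C receptor (EPCR, CD201), a marker of highly enriched HSCs, and lies at chr2:155751117-155755471 on the plus strand. With 11.5, 18.7 and 12.9 FPKM in controls 1 to 3, against 13.6, 15.3 and 13.4 FPKM with IGF1, its groups overlapped. The log2 fold change was 0.00 with a 95% interval of -0.47 to 0.47 (adjusted p = 0.987 from limma), so changes of up to that size in either direction could not be told from none. Without control replicate 2 it was 0.20 (adjusted p = 0.0255).

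Over the 9 of the 10 genes that could be tested, 0 were called by limma with all libraries, where 6.61% of all genes tested were called (1.98% higher and 4.63% lower). At an unadjusted p under 0.05, 6 of the 9 passed (53.4% of all genes) and 3 of these also passed the fold (16.7% of all genes), and voom called 1. With libraries scaled to the 75th percentile, the median over all genes went from -0.18 to 0.06 in log2 fold change and their calls from 207 higher and 484 lower to 391 higher and 208 lower, with 0 of the 9 called still. Without control replicate 2, Kit, Cd34 and Cd48 were called lower and 0 were called higher, where 32.9% of all genes were called, 20.6% lower and 12.3% higher. All 9 then passed the adjusted p, as did 88.5% of all genes. The groups did not overlap in 6 of the 10 genes, against 59.4% of all genes tested, with IGF1 below in 5 (37.4% of all genes) and above in 1 (21.9% of all genes). The share without overlap was at the background, and 10 genes give no basis for setting the shares by direction apart from it. For each of these 6 genes the 2-sided exact permutation test gave p = 0.1, the smallest that 3 libraries against 3 allow.

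**Figure D3:**
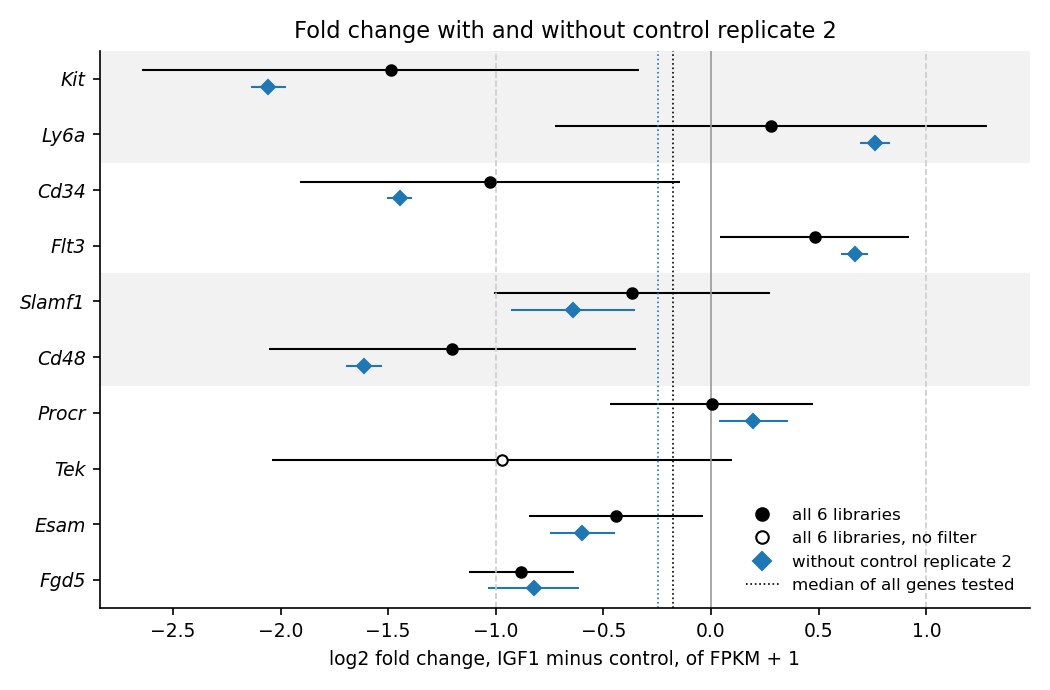
Fold change of each gene (IGF1 minus control, log2 of FPKM + 1) with its 95% interval from limma, with all 6 libraries (circles) and without control replicate 2 (diamonds). Dotted lines are the medians of all genes tested (-0.18 and -0.24) and dashed lines a fold of 2. Kit moves from -1.49 to -2.06 and Fgd5 from -0.88 to -0.82, and Tek is shown from the model with no filter (open circle).

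Per length, the order of the genes differed between libraries. In the IGF1 libraries it was Ly6a (382 ± 7.07 FPKM), Cd34 (233 ± 4.29), Flt3 (186 ± 2.53), Cd48 (90.1 ± 3.36) and Kit (24.4 ± 0.212), each apart from the next. Below them came Procr (14.1 ± 1.04) and Esam (14.1 ± 1.13), which did not differ beyond their spread, Slamf1 (0.978 ± 0.260) and Tek (0.762 ± 0.105), whose ranges overlapped, and Fgd5 (0.346 ± 0.0988) (SD, n = 3 for each). Control replicate 2 shared the order of the first 5 genes with the IGF1 libraries. In control replicates 1 and 3 Cd34 came first and Cd48 second, ahead of Ly6a, Flt3 and Kit. Over the 3 controls the ranges of Cd34 and Ly6a, of Ly6a and Cd48, of Cd34 and Cd48, of Cd48 and Flt3, of Esam and Procr, of Tek and Slamf1, of Tek and Fgd5, and of Slamf1 and Fgd5 overlapped.

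Transcripts of required and excluded proteins alike were detected in all libraries. The transcripts of both excluded proteins were above 100 FPKM in all 6 libraries, and that of Cd48 was between 86.6 and 283 FPKM. Slamf1, Tek and Fgd5 had at most 4.06 FPKM in any library. Of 15 genes enriched in long-term HSCs, 2 stayed below 1 FPKM in all libraries, Hoxb5 (0.279 to 0.691 FPKM) and Vwf (0.519 to 0.764 FPKM). Others were well detected, among them the transcription factors Gata2 (23.5 to 41.2 FPKM), Meis1 (13.8 to 45.2 FPKM), Erg (10.3 to 27.1 FPKM) and Hlf (8.88 to 11.8 FPKM). These 6 genes were chosen after their values were seen. Surface protein was not measured in these files.

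The genes whose pattern was most like that of the sort genes were taken by Pearson's r of log2(FPKM + 1) over the 6 libraries, as a description. For Kit these were Atp2c1 and Mgat2, for Ly6a Nme1 and Anxa3, for Cd34 Hnrnpu and Zfp422, and for Flt3 Cyba and Cenpb. An r over 0.99 was common, with 1502 of 10440 genes for Kit, 1428 for Cd34 and 931 for Flt3, but 38 for Ly6a. Cyba, for example, had 208, 607 and 208 FPKM in controls 1 to 3, against 775, 766 and 716 FPKM with IGF1, and like Flt3 put control replicate 2 near the IGF1 libraries. The points share the same 6 libraries, and the same split of control replicate 2 from the other controls enters every one of these values.

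The ligands and partners of the 3 receptors c-Kit, FLT3 and TIE2 were described from a list of 15 genes, of which 13 could be tested. None was called with all libraries, 0 higher and 0 lower by limma, and their median log2 fold change of -0.23 was close to the -0.18 of all genes. Without control replicate 2, 2 were called lower and 0 higher, against 20.6% and 12.3% of all genes, which is the background for the counts without that library in every list that follows. Of the ligands, named here after their values were seen, Kitl (stem cell factor) had at most 0.119 FPKM and Flt3l 3.33 to 6.82 FPKM. Angpt1, the ligand of TIE2, followed the pattern of Kit, with 74.2, 27.2 and 76.8 FPKM in controls 1 to 3, against 27.1, 25.8 and 25.2 FPKM with IGF1, and was called lower without control replicate 2 but not with it (log2 fold change -1.02, adjusted p = 0.0868 from limma with all libraries).

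Of the rest of the SLAM family and its adaptors, 9 of 10 genes were listed, 5 were tested and 0 were called, with a median of -0.40. Without control replicate 2, 1 was called higher and 1 lower. The Ly6 family beside Ly6a had 6 of 8 genes tested, a median of 1.45, and 2 genes called higher against 1.98% of all genes. These were Ly6i and Ly6k, chosen by their adjusted p. Ly6i had 0.424, 1.18 and 0.375 FPKM in controls 1 to 3, against 2.93, 3.60 and 4.51 FPKM with IGF1 (log2 fold change 1.51, adjusted p = 0.0287 from limma, and 1.73 without control replicate 2). Ly6k had 0.565, 2.02 and 0.803 FPKM in the controls, against 4.38, 3.77 and 4.92 FPKM with IGF1 (1.39, adjusted p = 0.0363, and 1.67 without control replicate 2). Without that library 5 of the 6 were called higher and 0 lower (12.3% and 20.6% of all genes). Ly6i, Ly6k and Ly6c1 reached 1 FPKM in the IGF1 libraries and control replicate 2 alone. They passed the filter only through libraries where they were high, so without control replicate 2 their direction was fixed by the filter. The counts called higher and the median of 1.45 therefore rest in part on that filter. Members of this family also resemble each other.

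Among 16 other surface proteins used on HSCs, 14 were tested with a median of -0.50, 1 was called lower and 0 were called higher. The called gene was Abcg2, the transporter behind the dye efflux of side population cells, with 28.2, 9.58 and 28.9 FPKM in controls 1 to 3, against 4.68, 4.76 and 4.66 FPKM with IGF1 (log2 fold change -1.88, adjusted p = 0.0412 from limma, and -2.37 without control replicate 2). Its groups did not overlap, and control replicate 2 was the lowest of the controls and lay above all IGF1 libraries. Without that library 5 of the 14 were called lower (20.6% of all genes) and 1 higher (12.3%). The gene called higher, Thy1, had 0.252 and 0.322 FPKM in controls 1 and 3, against 1.44 to 2.06 FPKM with IGF1. It passed the filter through the IGF1 libraries and control replicate 2 alone, so this direction was fixed by the filter.

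Of 12 tested surface proteins of multipotent and committed progenitors, 1 was called higher and 0 lower, with a median of 0.17. Il3ra, the alpha chain of the interleukin-3 receptor, had 2.70, 7.24 and 3.20 FPKM in controls 1 to 3, against 10.7, 10.5 and 11.2 FPKM with IGF1 (log2 fold change 1.23, adjusted p = 0.0466 from limma, and 1.58 without control replicate 2). Without control replicate 2, 4 were called higher and 2 lower. The 12 tested genes of long-term HSCs had a median of -0.13 and 0 calls, with 2 higher and 4 lower without that library. Whether the lists differed from each other was not tested.

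**Figure D4:**
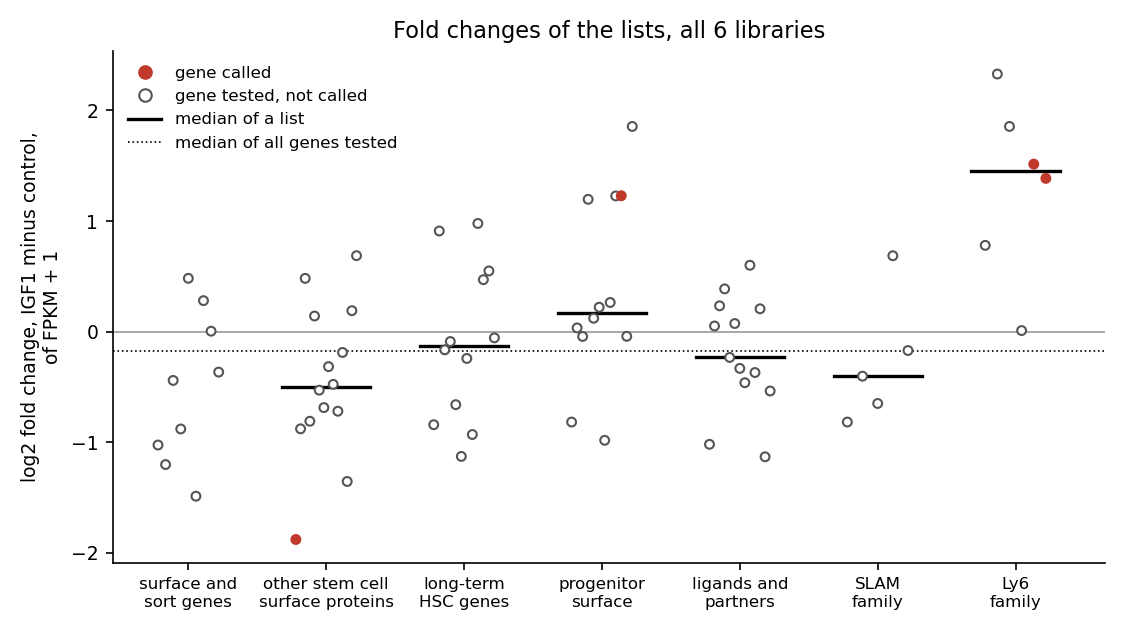
Fold changes with all 6 libraries (IGF1 minus control, log2 of FPKM + 1) of the 9 tested surface and sort genes and of the lists beside them, with 1 point per tested gene. Filled points are called genes, thick lines are medians of the lists, and the dotted line is the median of all genes tested (-0.18). The Ly6 family lies highest, with a median of 1.45 over 6 genes, and the other stem cell surface proteins lowest, with a median of -0.50 over 14. The median of the Ly6 family is set by Ly6i and Ly6k, which passed the filter only through libraries where they were high.

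The gate also excluded cells with lineage markers, whose genes were low with exceptions. Cd3e (at most 0.206 FPKM) and Ly6g (at most 0.200 FPKM) were near the limit that a count of 3 reads sets. Itgam, which encodes Mac-1's alpha chain, had 4.497 to 7.96 FPKM in the controls, against 4.46 to 4.84 FPKM with IGF1. Ptprc, of which the B220 antigen is an isoform carried by B cells, had 63.5, 32.6 and 64.6 FPKM in the controls, against 25.4, 27.1 and 26.8 FPKM with IGF1 (log2 fold change -0.93, adjusted p = 0.0549 from limma), and gene-level values do not tell the isoforms apart.

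Gr-1 antibodies read Ly6g and also Ly6c. Ly6c2 had 26.7, 379 and 29.6 FPKM in controls 1 to 3, against 340.4, 343 and 347 FPKM with IGF1, and Ly6c1 had 0.368, 1.43 and 0.476 FPKM in the controls, against 2.86, 1.62 and 1.47 FPKM with IGF1. Control replicate 2 was the highest of all 6 libraries for Ly6c2, as it was for Ly6a. Its log2 fold change was 2.33 (adjusted p = 0.107 from limma) and 3.57 without control replicate 2, and that of Ly6c1 was 0.78 (adjusted p = 0.0736). Of the 7 lineage genes 4 were tested and 0 were called, with 2 called higher and 1 lower without that library. Ly6c1, among those called higher, reached 1 FPKM only in the IGF1 libraries and control replicate 2. Its direction without that library was thus fixed by the filter.

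Transcripts of other blood cells varied beside the sort genes. The 10 tested genes of neutrophils and monocytes had 4 called lower (4.63% of all genes) and 0 higher (1.98%), and 4 lower and 2 higher without control replicate 2 (20.6% and 12.3% of all genes). Lower with IGF1 was S100a8 at 284, 163 and 285 FPKM in controls 1 to 3, against 55.0, 72.8 and 60.9 FPKM with IGF1 (log2 fold change -1.90, adjusted p = 0.0287 from limma). S100a9 had 81.8, 49.6 and 79.4 FPKM in the controls, against 14.5, 12.1 and 14.4 FPKM with IGF1 (-2.25, adjusted p = 0.0286), and Camp (-2.32, adjusted p = 0.0286) was called too. Elane, which encodes neutrophil elastase, lay on the other side, with 92.8, 576 and 92.4 FPKM in controls 1 to 3, against 692 to 709 FPKM with IGF1 (2.03, adjusted p = 0.0726). Prtn3, the gene of proteinase 3, likewise had 547 to 1525 FPKM in the controls, against 1694 to 1731 FPKM with IGF1 (1.14, adjusted p = 0.0808), and these were the 2 genes called higher without control replicate 2. The summed level of the 12 listed genes, which Mpo and Prtn3 lead, ran from 3246 to 4347 FPKM in the controls and from 4487 to 4510 with IGF1.

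All 7 tested B cell genes had a fold change above 0 and 0 were called, while 4 were called higher without control replicate 2 (12.3% of all genes), with a sum of 118.7, 434 and 118 FPKM in controls 1 to 3, against 402 to 421 FPKM with IGF1. Cd79a had 16.6, 71.4 and 17.5 FPKM in the controls, against 58.0, 66.3 and 64.8 FPKM with IGF1, and Cd79b had 53.7 to 97.4 and 101 to 103 FPKM. The pattern over libraries was like that of Ly6a in its high value in control replicate 2. The megakaryocyte and platelet list had 6 genes tested, 4 called higher without control replicate 2, and with all libraries 2 called higher, Treml1 (1.48, adjusted p = 0.0287 from limma) and Gp1bb (1.12, adjusted p = 0.0368), and a sum of 60.5 to 81.4 FPKM in the controls against 107 to 116 FPKM with IGF1. Pf4 had 15.6, 48.6 and 15.1 FPKM in the controls, against 67.2, 73.7 and 63.1 FPKM with IGF1, whereas Ppbp stayed at 0.573 to 1.12 FPKM.

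In the erythroid list 7 genes were tested and 0 called (1 lower without control replicate 2), and its sum was highest in control replicate 2, at 115 FPKM against 60.4 to 66.7 FPKM elsewhere. Hbb-bs had 33.2 FPKM there and 4.08 to 9.95 FPKM in the other libraries. The T and NK cell list had 4 genes tested and 0 called (1 higher without that library), with Cd3d at most 0.745 FPKM and a sum, led by Nkg7, of 389 to 818 FPKM in the controls, against 807 to 823 FPKM with IGF1. Tek, Esam and Procr are also expressed by endothelium, and of 10 endothelial genes 4 were under 1 FPKM in all libraries, with Cdh5 at most 0.123 FPKM and Kdr at most 0.601 FPKM. Others were not low, with Pecam1 at 17.5 to 34.4 FPKM, Emcn at 6.77 to 15.2 FPKM and Tie1 at 6.41 to 12.4 FPKM, and the sum of the list, led by Egfl7, ran from 225 to 335 FPKM. Of these genes 5 were tested and 0 were called with or without control replicate 2. Of 8 stromal genes 7 were under 1 FPKM in all libraries, with Cxcl12 at most 0.723 FPKM and Lepr at most 0.134 FPKM. The remaining gene, Adipoq, had at most 0.554 FPKM in the controls, against 1.11 to 1.43 FPKM with IGF1, and was not called. It was tested only through the IGF1 libraries, so its direction was fixed by the filter. The part that other cells had in the differences of the sort genes was not tested.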

How the data were processed

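RNA was sequenced from HSCs of mouse BM with a stranded mRNA kit, in 3 control and 3 IGF1 libraries. The authors trimmed reads with fastp, and the methods name RSEM for quantification while the submitters' processing notes name HISAT2, StringTie and the builds GRCm38 and mm10. Which of these tools made the values is not given in the sources used here. For every library the authors deposited a table of gene symbols with a value each, taken here as FPKM because the values are not whole, do not share a sum (466135 to 680285 per library) and rise in steps that differ by gene. Replicates were not pooled.

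Relative depths at which the values of a gene became whole multiples of 1 step gave reads for 15640 of 15640 genes above 0, within a tolerance of 0.01 read, against 0% of 2000 jittered rows. These reads gave the depth and the Poisson intervals and 1 alternative, and the absolute scale of depth rests on reference lengths. Intervals cover counting error only. Control replicates 1 and 3 differed by a chi-squared of 1.52 per gene, as IGF1 libraries did among themselves (1.69 to 1.89), and were counted as separate libraries. The chi-squared of control replicate 2 was 229 and 231 against the other controls and 24.6 to 28.0 against the IGF1 libraries.

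Genes were tested in limma 3.58.1 (R 4.3.3, lmFit, eBayes with a trend) on log2(FPKM + 1) with adjustment over the 10449 genes that reached 1 FPKM in 3 or more libraries. Calls used the study's thresholds, and the scripts were tested on simulated data. The unit does not allow a count model as the main test. Positions came from GENCODE's GRCm38 annotation and promoters from RefSeq, with 8 of the 10 genes matched and Ly6a and Esam not. The 4 motifs were set by hand as short fixed sequences.

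The members and lists were chosen with earlier results of these data known. Named were the 10 genes, the lineage genes, the called genes of each other list (up to 3 by adjusted p), the first 2 detected genes of each cell type list, and the 2 genes most like each of Kit, Ly6a, Cd34 and Flt3. Of these, 1 gene is not reported here. Hoxb5, Vwf, Gata2, Meis1, Erg, Hlf, Elane, Pecam1, Emcn, Tie1, Kitl, Flt3l, Angpt1, Mpo, Prtn3, Nkg7, Egfl7, Thy1 and Adipoq were added after their values were seen. Alternatives were other scalings (quantile, 75th percentile, median ratio), filters, pseudocounts, no variance trend, a replicate block, library weights, length and GC trends removed, other thresholds, leaving out each library and, added later, voom on recovered reads and ratios under other scalings. Values used Python 3.11.15, pandas 2.3.3, numpy 2.4.6, scipy 1.17.1 and matplotlib 3.10.9.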

Additional observations from a re-analysis of the deposited data

How the results depend on the processing

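Over the libraries left out in turn, calls over all genes ran from 0 to 1281 higher and from 0 to 2157 lower, with both upper ends reached without control replicate 2, and each other library left 0 calls with 233 to 386 higher and 450 to 795 lower genes at an unadjusted p under 0.05 with the fold. Calls of sort and stem cell genes ran from 0 to 3, all lower. The log2 difference of Ly6a over Flt3 ran from -0.37 to 0.0924 and among these turned only without control replicate 2. On log2(FPKM + 1), Kit over Cd34 went from -0.46 to 0.24 after quantile normalization and to -0.89 with length and GC trends removed. On that scale Slamf1 over Cd48 went from 0.84 to 1.03 and 1.44, and Ly6a over Flt3 was -0.87 with the trends removed. Without the pseudocount the starting values were -0.49 for Kit over Cd34 and 0.60 for Slamf1 over Cd48. Library weights, which left control replicate 2 a weight of 0.0137, called 1276 genes higher, 2159 lower and 3 of the members lower.

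Against 207 higher and 484 lower genes with all libraries, 75th percentile scaling called 391 and 208, quantile normalization 304 and 319, median ratio scaling 279 and 278, no filter 109 and 265, a pseudocount of 5 66 and 157, voom 380 and 679, removal of length and GC trends 153 and 151, the adjusted p alone 654 and 1476, and a fold over 1.5 481 and 1165. Fgd5 was the 1 member called lower with quantile normalization, a pseudocount of 0.1, removal of length and GC trends, voom, the adjusted p alone and a fold over 1.5. The sign of Ly6a turned with length and GC trends removed (-0.0879), that of Slamf1 likewise (0.24), and that of Procr with a pseudocount of 5 (-0.0012), with length and GC trends removed (-0.0820) and, over single libraries left out (-0.13 to 0.20), without control replicate 1, control replicate 3 or IGF1 replicate 2. Other members kept their sign in all alternatives run. The causes of these changes were not tested.

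Whether equal replicate numbers pair the libraries could not be decided. Their deviations from the group means had correlations of -0.057, -0.050 and 0.006. Control replicate 2 dominated the control deviations, so control replicates 1 and 3 gave nearly the same correlation with IGF1 replicate 1 (-0.057 and -0.054). With the replicate block 0 genes were called higher and 0 lower, and 680 and 1100 had an unadjusted p under 0.05 and the fold. Depth limited Slamf1, Tek and Fgd5, with 22 to 307 reads per library.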
